A study of Mus musculus with 4 samples.

Results

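The genes described here are 7 genes of the brain's hyaluronan-based matrix, Acan, Bcan, Ncan, Vcan, Hapln1, Hapln4 and Tnr. They were taken by symbol from the gene list of the count matrices, where each of the 7 occurs once among 32285 genes. The matrices come from single-nucleus RNA sequencing of the cerebral cortex of wild-type C57BL/6J mice at postnatal day (PND) 90. The mice had received daily intraperitoneal saline or risperidone, an antipsychotic that blocks dopamine and serotonin receptors, at 4 mg/kg from PND 22 for 21 days, and the drug was then withheld until the tissue was taken. Each condition is a single pool made of right hemicortices from 5 males and 5 females and was loaded on 2 Chromium lanes. Values are listed with lane 1 before lane 2 of each condition. Lanes of a pool repeat the technique and not the biology, so n is 1 pool per condition, no test between the conditions could be made, and every interval below covers counting error only.

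Perineuronal nets are a condensed form of the extracellular matrix around some neurons, best known in the cortex around fast-spiking interneurons that express parvalbumin. Their backbone is hyaluronan, to which the chondroitin sulfate proteoglycans of the lectican family bind, namely aggrecan (Acan), brevican (Bcan), neurocan (Ncan) and versican (Vcan). Link proteins such as those encoded by Hapln1 and Hapln4 hold the lecticans on the hyaluronan chain, and tenascin-R (Tnr) bridges lecticans at their other end. Nets assemble late in postnatal life, glia supply some of these proteins, and the RNA in a nucleus says which cell makes a protein, not where it is laid down.

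In the GENCODE vM21 annotation of GRCm38, the files' build, each of the 4 lectican genes lies beside a gene of the Hapln link protein family. Hapln4 at chr8:70083457-70090862 (plus strand) and Ncan at chr8:70093085-70120873 (minus strand) are 2222 bases apart, and Hapln1 at chr13:89539796-89611652 (plus) and Vcan at chr13:89655312-89742509 (minus) are 43659 bases apart. Acan at chr7:79053483-79115099 (plus) ends 2 bases before Hapln3, on the other strand. Bcan at chr3:87987531-88000230 (minus) lies 21519 bases from Hapln2, and Tnr at chr1:159523769-159931729 (plus) has no link protein gene beside it. Gene length, introns included, ran from 7.41 kb for Hapln4 and 12.7 kb for Bcan to 408 kb for Tnr. Intronic reads were counted, so a long gene can collect more UMIs (unique molecular identifiers, counted molecules) at the same number of transcripts. The antisense gene Gm4117 overlaps Vcan and was counted on its own at 2468 UMIs in all nuclei, and the genes Gm10530 and Gm38039 overlap Tnr and were counted on their own at 488 and 529 UMIs.

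Acan, Vcan and Tnr had their highest level in the same cell class, the oligodendrocyte precursors, and the 250 bases before their start sites are therefore shown, from RefSeq on GRCm38.p6 and on the strand of the gene. Capitals mark matches to ACAAAG or ACAATG, letters that SOX factors can bind, or to the E-box CAGCTG, searched on both strands.
Acan: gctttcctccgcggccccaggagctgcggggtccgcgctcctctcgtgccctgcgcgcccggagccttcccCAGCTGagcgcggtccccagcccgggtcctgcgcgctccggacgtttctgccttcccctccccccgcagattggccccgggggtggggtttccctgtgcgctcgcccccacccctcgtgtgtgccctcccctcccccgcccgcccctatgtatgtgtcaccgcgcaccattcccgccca
Vcan: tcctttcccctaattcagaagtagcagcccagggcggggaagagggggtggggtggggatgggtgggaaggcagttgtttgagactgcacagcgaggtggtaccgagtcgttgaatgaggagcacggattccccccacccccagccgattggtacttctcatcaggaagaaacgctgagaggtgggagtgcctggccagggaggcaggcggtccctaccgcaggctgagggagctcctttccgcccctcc
Tnr: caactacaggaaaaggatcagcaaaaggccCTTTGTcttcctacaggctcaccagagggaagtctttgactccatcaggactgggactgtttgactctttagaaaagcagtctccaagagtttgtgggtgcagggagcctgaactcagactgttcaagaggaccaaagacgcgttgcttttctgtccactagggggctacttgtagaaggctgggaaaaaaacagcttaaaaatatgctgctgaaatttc
These windows are chr7:79052976-79053225 (plus), chr13:89742513-89742762 (minus) and chr1:159523519-159523768 (plus). The Acan window held 1 CAGCTG, the Tnr window 1 ACAAAG and the Vcan window none of the 3 motifs. Among 27018 promoter windows of that length, 16.5% held ACAAAG, 11.0% held ACAATG and 12.8% held CAGCTG. The share of G and C was 74.4% for Acan, 62.4% for Vcan and 46.8% for Tnr, against a median of 52% over all windows, so the 3 windows differed in base composition.

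The saline lanes held 29536 and 29986 nuclei and the risperidone lanes 25983 and 23450, with 160 to 221 barcodes shared by any pair of lanes. Median UMIs per nucleus were 3297 and 4049 in saline and 5648 and 7766 in risperidone, and the lowest listed nucleus had 1364 and 1630 UMIs in saline and 500 in both risperidone lanes. Nuclei were put in 12 classes from marker genes that include none of the 7 genes, and 59.8% of 108493 nuclei received a class. No class was given to 50.5% and 46.4% of saline nuclei by lane, against 32.1% and 28.4% of risperidone nuclei. A class is called PV-like, OPC-like (oligodendrocyte precursor) and so on, since it rests on marker UMIs. Its own markers supplied 2 to 5 of the 10 genes most enriched in each class, with Pvalb, Btbd11 and Eya4 among those of PV-like, Cspg4 and Pdgfra among those of OPC-like, and Slc1a3 and Gli3 among those of astrocyte-like nuclei. Those of PV-like nuclei also held Tmem132c of the Sst list, and those of Vip-like nuclei Mybpc1 of the PV list. In PV-like nuclei the Sst list was at 3.30 times its level over all nuclei, beside 11.3 times for the PV list. A lane gave 556 to 600 PV-like, 433 to 450 Sst-like, 349 to 448 Lamp5-like, 938 to 1057 astrocyte-like, 321 to 378 OPC-like and 10575 to 13313 glutamatergic-like nuclei.

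Nuclei of every class also hold RNA of other nuclei. Its share was estimated per class and lane as the lowest level, relative to all nuclei, of the marker lists of the other classes. For OPC-like nuclei it came to 27.8% and 29.7% in saline and 13.7% and 13.1% in risperidone, for astrocyte-like nuclei to 23.3% and 26.6% in saline and 13.9% and 14.2% in risperidone, for Sst-like nuclei to 22.5% and 25.3% in saline and 40.6% and 42.8% in risperidone, for Lamp5-like nuclei to 20.2% and 22.6% in saline and 12.2% and 12.9% in risperidone and for PV-like nuclei to 9.76% and 15.9% in saline and 10.8% and 10.2% in risperidone. The share was thus lower in the risperidone lanes for the glial classes and Lamp5-like nuclei and higher there for Sst-like nuclei, and ratios with these UMIs taken out are given beside the ratios of each class. For these ratios the total used for scaling each lane was lowered by the same share. A ratio therefore also moves for a gene that loses few UMIs itself.

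Levels are given in CPM, a gene's UMIs divided by all UMIs of the class in a lane, on the usual counts-per-million scale. CPM is not corrected for gene length, so it is compared between cell classes and not between genes. Over all nuclei Acan was at 1.96 to 2.38 CPM over the 4 lanes, Hapln4 at 3.17 to 3.44, Hapln1 at 4.19 to 5.05, Bcan at 19.7 to 24.2, Vcan at 22.8 to 25.4 and Ncan at 44.4 to 47.8 CPM. Tnr, the longest gene, was at 803 to 1022 CPM. The UMIs behind these values were 573477 for Tnr, 2099 for Hapln4 and 1363 for Acan. Levels of different genes were set side by side per kb of gene, which supposes that UMIs grow in proportion to gene length. That was not tested, and the order differs from that of CPM. In astrocyte-like nuclei Bcan led with 27.0 CPM per kb of gene, ahead of Ncan with 3.66, Hapln1 with 0.763, Vcan with 0.510 and Tnr with 0.367. In OPC-like nuclei the order differed between the conditions, with Tnr at 15.2, Bcan at 11.7 and Vcan at 7.99 CPM per kb in saline, and Bcan at 19.9, Tnr at 16.4 and Vcan at 14.8 CPM per kb in risperidone. Acan was lower there, at 0.650 CPM per kb in saline and 0.765 in risperidone. In PV-like nuclei Bcan (4.25 CPM per kb) and Tnr (2.22) were above Hapln4 (1.26), Ncan (0.733) and Acan (0.333).

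**Figure D1:**
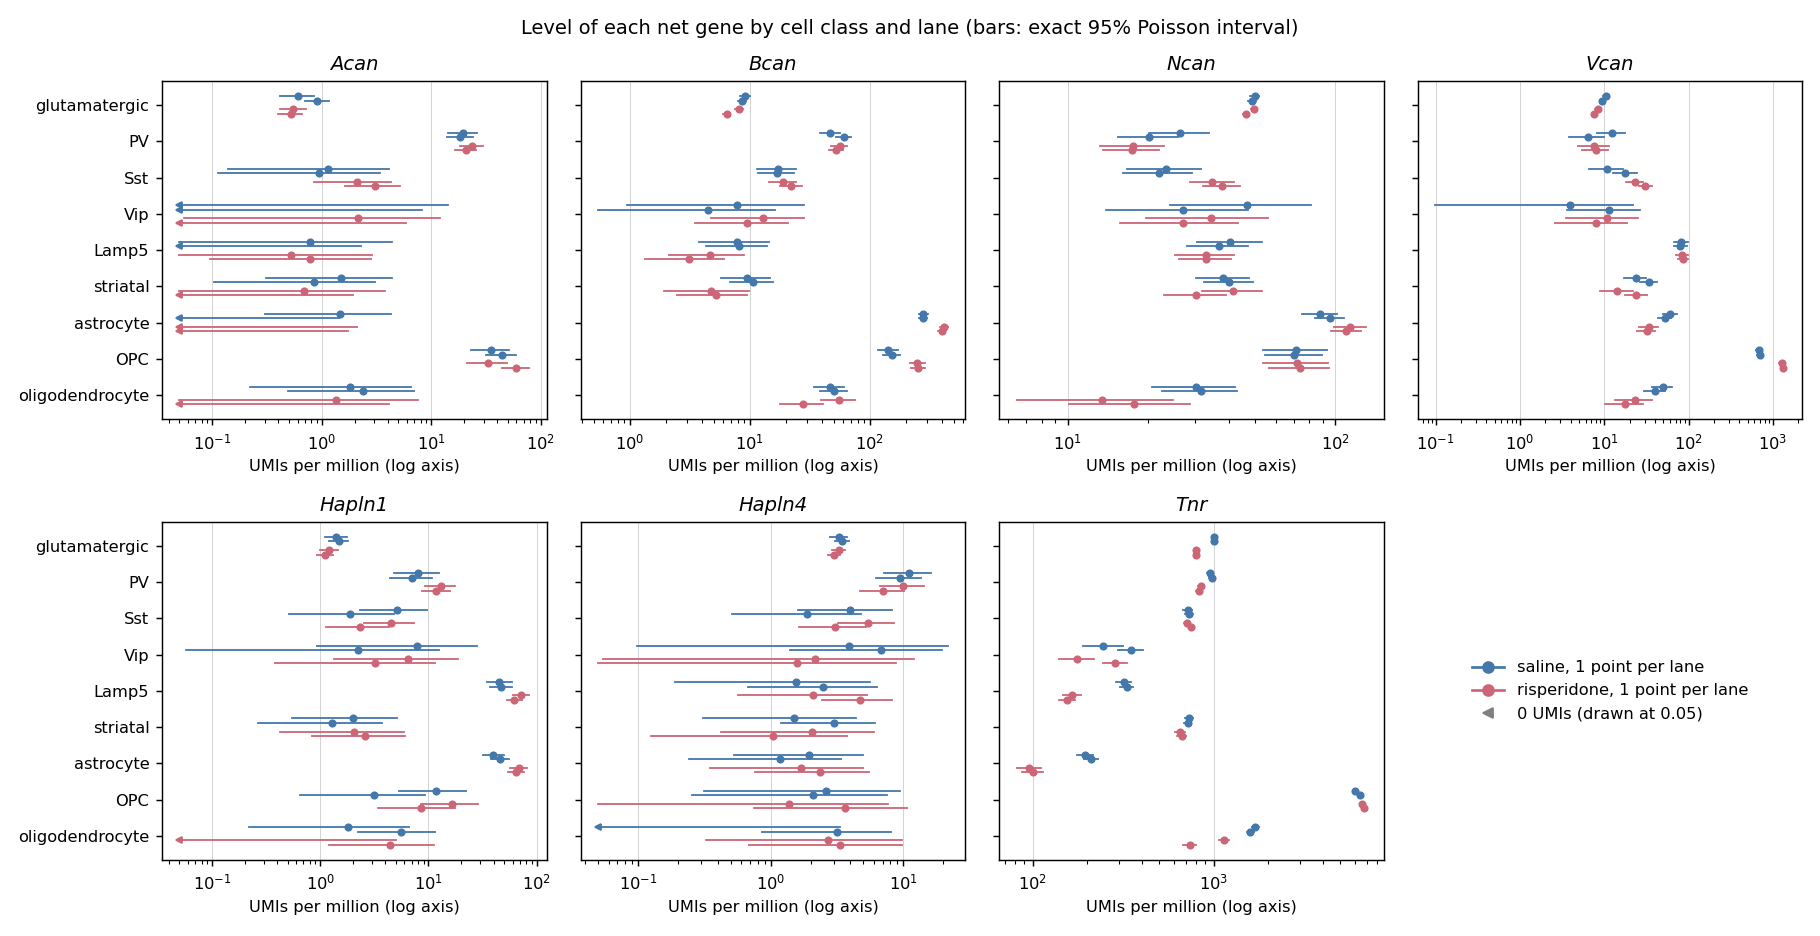
Level of each of the 7 genes in CPM of the class (log axis) for 9 cell classes, with a point for each lane, blue for saline and red for risperidone, and bars for the exact 95% Poisson interval. Acan stands above 10 CPM in PV and OPC nuclei only among these classes, Vcan and Tnr peak in OPC nuclei, Bcan and Ncan in astrocyte nuclei, and Hapln1 in Lamp5 and astrocyte nuclei.

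Aggrecan, the lectican most tied to mature nets, had its highest levels by far in 2 classes. In OPC-like nuclei Acan was at 35.1 and 44.1 CPM in saline and 33.1 and 59.4 CPM in risperidone, and in PV-like nuclei at 19.5 and 18.5 CPM in saline and 23.6 and 20.5 CPM in risperidone. All 4 lanes of the former lay above all 4 of the latter, and both conditions overlapped in OPC-like nuclei. Endothelial-like nuclei had 2 Acan UMIs in all, and no further class averaged 2 CPM. Glutamatergic-like nuclei averaged 0.644 CPM (lanes 0.520 to 0.904), Sst-like nuclei 1.81 CPM (lanes 0.936 to 3.06) and Lamp5-like nuclei 0.521 CPM (lanes 0 to 0.782). Acan had 0 UMIs in the microglia-like nuclei of every lane, which allows up to 15.8 to 63.9 CPM per lane, so little can be said of that class. The UMIs expected from RNA of other nuclei, as a share of those counted, were 0.0162 in saline and 0.00961 in risperidone for PV-like and 0.0166 in saline and 0.00569 in risperidone for OPC-like nuclei, but 0.607 in saline and 0.641 in risperidone for glutamatergic-like nuclei.

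Even in these classes few nuclei held an Acan UMI. After each nucleus was thinned to 2000 UMIs, Acan was seen in 1.98% and 3.32% of nuclei in saline and 4.04% and 3.64% in risperidone of the PV-like class and in 8.09% and 8.40% of nuclei in saline and 6.67% and 9.13% in risperidone of the OPC-like class. Among glutamatergic-like nuclei the share was 0.0904% and 0.188% of nuclei in saline and 0.0979% and 0.0788% in risperidone. Thinning left out 6 to 79 PV-like and 69 to 209 OPC-like nuclei per lane that were shallower. Without thinning, at median depths of 3705 to 7374 UMIs for PV-like, 1936 to 2600 for OPC-like and 4547 to 8739 for glutamatergic-like nuclei, the shares in saline lanes 1 and 2 and risperidone lanes 1 and 2 were 7.03%, 8.17%, 9.82% and 12.1% for PV-like, 7.28%, 9.79%, 5.35% and 12.1% for OPC-like and 0.293%, 0.475%, 0.331% and 0.425% for glutamatergic-like nuclei.

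Brevican, a smaller lectican found around synapses and on the initial part of axons, was above all a glial transcript. Bcan was at 279.9 and 278 CPM in saline and 416 and 399 CPM in risperidone for astrocyte-like nuclei and at 143 and 153 CPM in saline and 249.9 and 255 CPM in risperidone for OPC-like nuclei. The lanes of the former lay above those of the latter, and in both classes the risperidone lanes lay above the saline lanes. PV-like nuclei followed at 46.6 and 60.8 CPM in saline and 56.1 and 52.4 CPM in risperidone. The remaining interneuron classes had far less, with 18.7 CPM (lanes 16.8 to 22.1) in Sst-like, 8.69 CPM (lanes 4.50 to 12.9) in Vip-like and 5.93 CPM (lanes 3.13 to 8.10) in Lamp5-like nuclei, and glutamatergic-like nuclei averaged 8.09 CPM (lanes 6.42 to 9.14). Expected UMIs from other nuclei were a ratio of 0.554 in saline and 0.490 in risperidone to those counted in glutamatergic-like nuclei, and 0.0581 in saline and 0.0396 in risperidone in PV-like nuclei. Oligodendrocyte-like nuclei, at 45.0 CPM (lanes 27.7 to 55.1), overlapped with the lanes of PV-like nuclei.

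Neurocan, a lectican of the developing brain, was found in glia and neurons alike. Ncan was at 87.5 and 95.6 CPM in saline and 114 and 109.9 CPM in risperidone for astrocyte-like nuclei, at 71.5 and 70.3 CPM in saline and 71.8 and 74.0 CPM in risperidone for OPC-like nuclei and at 50.2 and 48.8 CPM in saline and 49.7 and 46.3 CPM in risperidone for glutamatergic-like nuclei, and these 3 classes did not overlap. Striatal-like nuclei averaged 37.5 CPM (lanes 30.1 to 41.6) and Lamp5-like nuclei 35.8 CPM (lanes 32.8 to 40.6), and from there down every class overlapped with its neighbour in the order. PV-like nuclei, the class with most Acan among neurons, were near the bottom at 20.4 CPM (lanes 17.4 to 26.3). Among layer types of the glutamatergic-like class, nuclei with layer 6 corticothalamic markers had 60.4 CPM of Ncan (lanes 59.0 to 61.1), above every lane of the other 4 types, which ran from 42.1 to 54.1 CPM. Bcan averaged 14 CPM (lanes 11.7 to 19.2) in the near-projecting type, overlapping with the layer 5 extratelencephalic type at 11.1 CPM (lanes 9.70 to 12.6). Vcan overlapped among all 5 types.

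Versican is a large lectican made by glial precursors among others, and its mean level in its highest class was 12 times that in the next. OPC-like nuclei held 691 and 701 CPM in saline and 1269 and 1309 CPM in risperidone. The next class was not glial. Lamp5-like interneurons had 81.3 and 79.7 CPM in saline and 83.3 and 85.2 CPM in risperidone, with lanes in a narrow band that did not overlap with any other class. Astrocyte-like nuclei came next at 60.3 and 51.9 CPM in saline and 34.0 and 31.7 CPM in risperidone, and here the saline lanes were the higher ones. The lowest were glutamatergic-like nuclei with 9.02 CPM (lanes 7.62 to 10.6), PV-like nuclei with 8.57 CPM (lanes 6.38 to 12.3) and Vip-like nuclei with 8.47 CPM (lanes 3.89 to 11.2), and these overlapped. In Lamp5-like nuclei RNA of other nuclei accounted for an expected ratio of 0.0663 in saline and 0.0349 in risperidone, and in PV-like nuclei for 0.361 in saline and 0.311 in risperidone. After thinning, Vcan was seen in 64.7% and 69.5% of nuclei in saline and 90.3% and 88.1% in risperidone of the OPC-like class, in 12.2% and 12.2% of nuclei in saline and 12.7% and 11.9% in risperidone of the Lamp5-like class and in 2.03% and 2.01% of nuclei in saline and 1.52% and 1.5% in risperidone of the glutamatergic-like class. Unthinned, in the same lane order, the OPC-like class had 65.3%, 69.8%, 83.2% and 90.3%, the Lamp5-like class 20.1%, 21.7%, 21.4% and 24.8%, and the glutamatergic-like class 4.86%, 5.04%, 4.98% and 5.97%.

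The link proteins differed in where they were found. Hapln1, the link protein of cartilage and of nets, was at 45.3 and 46.7 CPM in saline and 72.3 and 62.2 CPM in risperidone for Lamp5-like nuclei and at 39.8 and 46.1 CPM in saline and 68.6 and 64.9 CPM in risperidone for astrocyte-like nuclei. These ranges overlapped, and in both classes the risperidone lanes were above the saline lanes. PV-like nuclei had 8.05 and 7.05 CPM in saline and 12.9 and 11.8 CPM in risperidone, and OPC-like nuclei had 11.7 and 3.15 CPM in saline and 16.6 and 8.49 CPM in risperidone on 3 to 12 UMIs a lane. Sst-like nuclei had 3.46 CPM (lanes 1.87 to 5.12) and glutamatergic-like nuclei 1.30 CPM (lanes 1.11 to 1.48), and in the latter the expected UMIs from other nuclei were a ratio of 0.616 in saline and 0.708 in risperidone to those counted. Thinned shares of nuclei with a Hapln1 UMI were 8.84% and 6.69% of nuclei in saline and 11.1% and 11.2% in risperidone for the Lamp5-like class and 7.29% and 8.83% of nuclei in saline and 13.8% and 9.59% in risperidone for the astrocyte-like class, against 0.301% and 0.325% of nuclei in saline and 0.218% and 0.252% in risperidone for the glutamatergic-like class. Unthinned, the Lamp5-like class had 12.3%, 16.6%, 19.9% and 23.1%, the astrocyte-like class 7.62%, 10.2%, 10.7% and 12.7%, and the glutamatergic-like class 0.690%, 0.842%, 0.834% and 0.960%, at median depths of 3292 to 5862 UMIs for Lamp5-like and 1579 to 2284 for astrocyte-like nuclei.

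Hapln4, a brain link protein known from nets and inhibitory synapses, is a short gene with a low level in every class, although glutamatergic-like nuclei held 1099 of its UMIs. Its highest class mean was in PV-like nuclei at 11.0 and 9.40 CPM in saline and 9.96 and 7.01 CPM in risperidone, or 26 and 28 UMIs in saline and 30 and 29 UMIs in risperidone. Glutamatergic-like nuclei had 3.25 CPM (lanes 3.02 to 3.46), with expected UMIs from other nuclei at a ratio of 0.205 in saline and 0.176 in risperidone. The remaining classes overlapped with their neighbours in the order, and in no class did the mean reach 10 CPM.

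Tenascin-R was found in neurons and in the oligodendrocyte lineage. Tnr was at 6011 and 6390.1 CPM in saline and 6586 and 6787 CPM in risperidone for OPC-like nuclei, where after thinning 99.4% to 100% of nuclei held a UMI. Oligodendrocyte-like nuclei had 1694 and 1588 CPM in saline and 1140.4 and 735 CPM in risperidone. PV-like nuclei had 956 and 979 CPM in saline and 852 and 829 CPM in risperidone and glutamatergic-like nuclei 999 and 1005 CPM in saline and 793 and 798 CPM in risperidone. In both classes every risperidone lane was below every saline lane. Sst-like nuclei with 729 CPM (lanes 714 to 753) and striatal-like nuclei with 689.9 CPM (lanes 651 to 729) overlapped with each other, and Lamp5-like nuclei were lower at 318 and 330.2 CPM in saline and 165 and 155 CPM in risperidone. Astrocyte-like nuclei were at 195 and 209.6 CPM in saline and 95.3 and 99.9 CPM in risperidone, where the UMIs expected from other nuclei exceeded those counted, with a ratio of 1.26 in saline and 1.16 in risperidone. The Tnr UMIs of astrocyte-like nuclei were thus not above those expected from other nuclei.

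Nuclei without a class held much of each gene's UMIs, since 658 of 1363 Acan UMIs, 7894 of 15334 Vcan UMIs and 352626 of 573477 Tnr UMIs lay in classed nuclei. All shares that follow are of the UMIs in classed nuclei alone. Glutamatergic-like nuclei held 81.5% to 87.5% of these UMIs over all genes. Their share over the 4 lanes was 80.8% to 86.6% for Tnr, 83.3% to 89.3% for Ncan and 79.0% to 84.1% for Hapln4, close to their share over all genes. It was 34.1% to 39.3% for Bcan, 36.6% to 38.7% for Vcan, 27.1% to 37.9% for Acan and 26.1% to 31.1% for Hapln1. PV-like nuclei, with 2.73% to 3.64% of UMIs, held 32.5% to 44.7% of Acan, or 257 UMIs. OPC-like nuclei, with 0.593% to 1.18% of UMIs, held 36% to 43.8% of Vcan and 15.1% to 24.9% of Acan, or 142 UMIs. Astrocyte-like nuclei held 36.7% to 40.9% of Bcan and 26.9% to 34.9% of Hapln1. Lamp5-like nuclei held 22.2% to 31.4% of Hapln1.

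**Figure D2:**
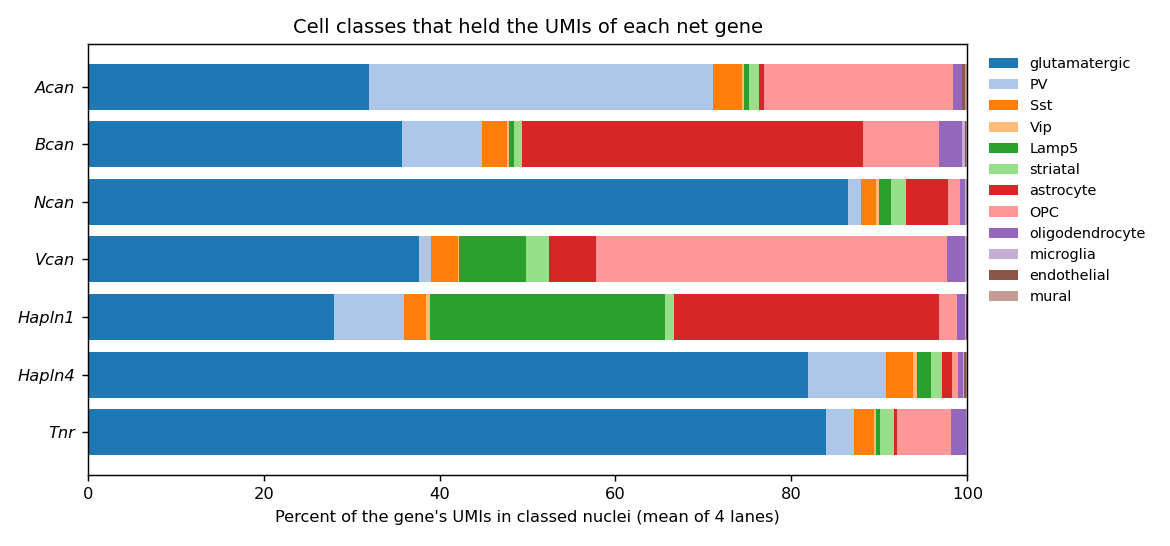
Percent of each gene's UMIs in classed nuclei (horizontal axis, mean of the 4 lanes) that fell in each of 12 cell classes (colours). The bars of Tnr, Ncan and Hapln4 are mostly glutamatergic, while Acan is divided mainly among PV, glutamatergic and OPC nuclei, Vcan between OPC and glutamatergic nuclei, and Hapln1 among astrocyte, glutamatergic and Lamp5 nuclei.

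Within a class, nuclei that held a UMI of one of the genes were compared with those that did not, over both conditions, with exact 95% Poisson intervals in parentheses. Of the PV-like nuclei, 212 held an Acan UMI and 2087 did not. Bcan was at 76.9 CPM (63.7 to 92.1) in the former and 51.0 CPM (46.9 to 55.4) in the latter, although the lane ranges of 53.5 to 123 CPM and 39.7 to 56.2 CPM overlapped. Ncan went the other way, with 11.1 CPM (6.46 to 17.7) against 21.0 CPM (18.4 to 23.9). Hapln4, whose highest class mean was in this class, was at 11.1 CPM (6.46 to 17.7) with and 8.76 CPM (7.10 to 10.7) without an Acan UMI. In the Lamp5-like class, Hapln1 was at 91.2 CPM (77.8 to 106) in the 350 nuclei with a Vcan UMI and 48.1 CPM (42.5 to 54.2) in the 1235 without, and there the lanes at 59.1 to 140.0 CPM and 40.6 to 53.7 CPM did not overlap. Read the other way, Vcan was at 118 CPM (101 to 137) in Lamp5-like nuclei with a Hapln1 UMI and 73.8 CPM (67.0 to 81.1) without. In OPC-like nuclei Vcan was much the same with and without an Acan UMI, at 1033 CPM (926 to 1149) and 971 CPM (936 to 1008). Nuclei with a UMI were deeper in each comparison, with lane medians of 4138 to 8673 against 3683 to 7207 UMIs for PV-like and 4020.5 to 6132 against 3177 to 5761 UMIs for Lamp5-like nuclei, and the part of depth was not tested.

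**Figure D3:**
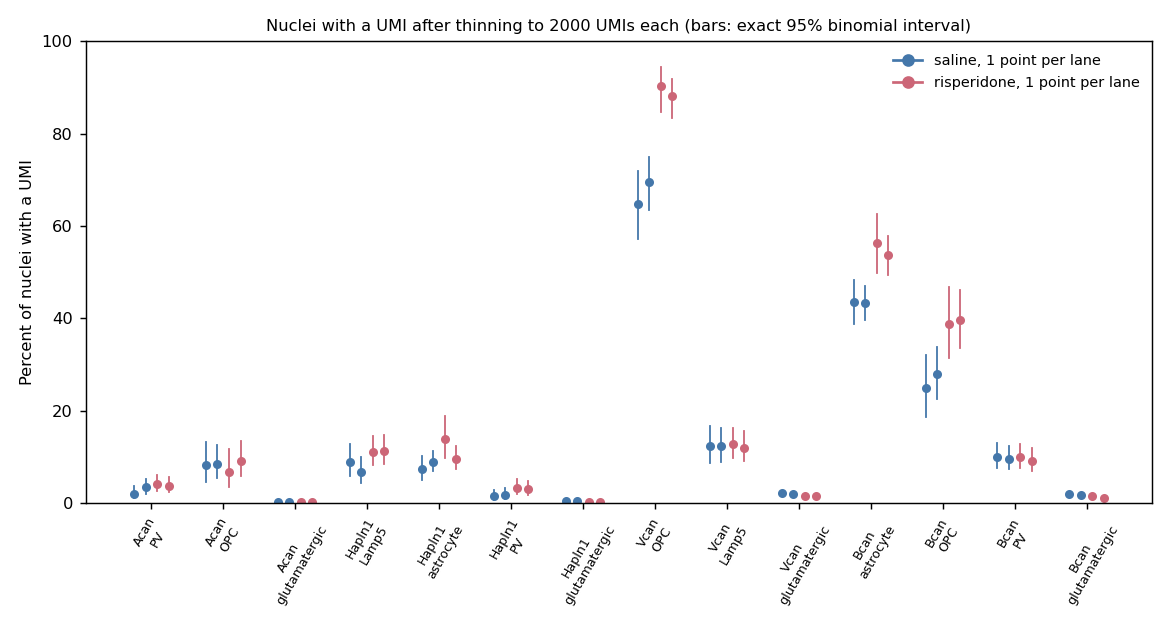
Percent of nuclei with at least 1 UMI of a gene (vertical axis) in the classes where it was found and in glutamatergic nuclei for comparison, after thinning each nucleus to 2000 UMIs. Points are lanes, blue for saline and red for risperidone, and bars are exact 95% binomial intervals. Vcan in OPC nuclei runs from 64.7% to 90.3%, and Acan stays under 10% in every class and lane shown.

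The pattern of each gene over the 12 classes was set beside that of every gene with at least 10 CPM in some class, as Pearson's r of log2(CPM + 1) of class means. The classes share lanes and differ in depth, so r is a description without a p. Each class has the same weight, also where its mean rests on few UMIs. Hapln4 reached 10 CPM in no class and had 1 UMI in microglia-like, 2 in mural-like and 3 in endothelial-like nuclei. Acan had 0, 1 and 2 UMIs in these classes. For Acan the most similar genes were Gpnmb (r = 0.83), Gm26633 (0.81) and Hells (0.81), for Vcan Rlbp1 (r = 0.90), Gm36146 (0.89) and S100a3 (0.88) and for Tnr Mb21d2 (r = 0.88), Dll1 (0.88) and Tmem132d (0.88). Bcan was most like Cyp2j9 (r = 0.91), Palld (0.89) and Cyp2j6 (0.89), and Ncan most like Rnf182 (r = 0.91), Zc3h12b (0.90) and Gm3764 (0.90). Hapln1 resembled Bach2 (r = 0.88), Kidins220 (0.87) and Mgll (0.85), and Hapln4 resembled Zfyve9 (r = 0.87), N4bp3 (0.85) and Itga3 (0.85). Among the 7 genes themselves the highest values were 0.63 for Acan and Tnr, 0.57 for Ncan and Vcan, 0.56 for Vcan and Tnr, and 0.54 for Acan and Hapln4. The neighbouring genes Hapln4 and Ncan had the lowest, at -0.50, while the neighbours Hapln1 and Vcan were at 0.47.

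The conditions were compared within classes by the log2 ratio of risperidone to saline, lanes of a condition added and scaled with edgeR's TMM factors. Intervals in parentheses are exact, at 95%, and conditional on the sum of the counts. A gene was counted as measured at a mean of at least 10 CPM, and as past the size rule when its ratio was at least 0.5 in absolute value with both risperidone lanes beyond both saline lanes. Over all nuclei 4 of the 7 genes were measured and none passed, while 3.01% of all genes measured were higher and 7.88% lower by the rule. Astrocyte-like nuclei numbered 1989 in saline and 1995 in risperidone, OPC-like nuclei 735 and 695, and glutamatergic-like nuclei 22571 and 26019. Fewer cells of a type and less RNA per cell cannot be told apart in such a sum. All 4 ratios were below 0, from -0.44 for Tnr and -0.34 for Bcan to -0.20 for Vcan and -0.16 for Ncan, against a median of -0.051 over all genes. The split of all genes depended on the scaling. With plain CPM in place of TMM, the median over all genes in all nuclei was 0.064, and the split by the rule was 6.40% higher and 3.74% lower. It was 7.51% higher and 3.93% lower in glutamatergic-like, 11.3% higher and 4.72% lower in PV-like, 11.6% higher and 5.37% lower in Sst-like, 10.7% higher and 6.26% lower in Lamp5-like, 13.0% higher and 12.6% lower in astrocyte-like, 13.9% higher and 10.6% lower in OPC-like and 25.3% higher and 20.2% lower in oligodendrocyte-like nuclei.

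In OPC-like nuclei, 5 of the 7 genes were measured and 2 were higher in risperidone, where 10.3% of all genes measured were higher and 13.4% lower. Vcan had a ratio of 0.81 (0.70 to 0.91) and Bcan of 0.68 (0.45 to 0.91). The other 3 did not pass, with 0.15 (-0.34 to 0.65) for Acan, -0.04 (-0.42 to 0.34) for Ncan and 0.023 (-0.016 to 0.062) for Tnr. The median over the 5 was 0.15, and over all genes -0.019. Among the markers, the OPC list in these nuclei was at 9126 and 8882 CPM in saline and 10007 and 10389.6 CPM in risperidone. Most of this sum was Lhfpl3. With lanes added, every marker of the list was higher in risperidone, but not alike. In CPM, Pdgfra and Gpr17 were higher by more than Vcan and Bcan were. Cspg4, Lhfpl3, C1ql1 and Sox10 were higher by less. The part of these markers in the ratios was not tested. The glutamatergic list in these nuclei was at 246 and 260.2 CPM in saline and 126 and 120.1 CPM in risperidone. With the UMIs expected from other nuclei taken out, the ratio of Vcan was 0.53, still past the rule, and that of Bcan 0.45, no longer past it, while Acan was at -0.12, Ncan at -0.14 and Tnr at -0.22. The UMIs taken out were few, at a ratio to those counted of 0.0103 in saline and 0.00243 in risperidone for Vcan. For Bcan the ratio was 0.0466 in saline and 0.0109 in risperidone. The totals used for scaling were lowered too, and by the larger share in saline. In nuclei of at least 3000 UMIs, of which the lanes held 46 and 88 for saline and 11 and 86 for risperidone, Vcan was at 0.55 and Bcan at 0.495, the latter short of the threshold.

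In astrocyte-like nuclei, 5 genes were measured, 1 was higher and 2 were lower in risperidone, against 8.91% and 15.2% of all genes. Hapln1 was higher at 0.52 (0.25 to 0.79). Bcan, at 0.44 (0.34 to 0.55), fell short of the threshold although its lanes did not overlap, and Ncan was at 0.18 (-0.018 to 0.38). With plain CPM, at 279 in saline and 407 in risperidone with lanes added, Bcan was past the rule. Vcan was lower at -0.87 (-1.18 to -0.55) and Tnr at -1.16 (-1.33 to -0.98), the latter on counts that other nuclei could supply in full. The astrocyte list in these nuclei was at 6162 and 6225 CPM in saline and 7022 and 7014 CPM in risperidone. Most of this sum was Slc1a3 and Slc4a4. With lanes added, every marker of the list was higher in risperidone, but not alike. In CPM, Aqp4, Gja1 and Fgfr3 were higher by more than Hapln1 and Bcan were. Slc1a3, Slc4a4, Gli3 and Slc7a10 were higher by less, and Aldh1l1 lay between Hapln1 and Bcan. The part of these markers in the ratios was not tested. The OPC list was at 119 and 114 CPM in saline and 53.9 and 49.3 CPM in risperidone. The glutamatergic list was at 263 and 246 CPM in saline and 128 and 131 CPM in risperidone. Taking out the UMIs expected from other nuclei left Vcan at -1.05, Hapln1 at 0.34, Bcan at 0.27 and Ncan at 0.093, with Vcan alone past the rule. In nuclei of at least 3000 UMIs, of which the lanes held 95 and 205 for saline and 28 and 142 for risperidone, none passed. The median over the 5 was 0.18.

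In PV-like nuclei 4 genes were measured and none passed the rule, against 7.12% higher and 7.94% lower among all genes. Acan was at 0.11 (-0.26 to 0.48), Bcan at -0.11 (-0.33 to 0.11), Ncan at -0.48 (-0.86 to -0.11) and Tnr at -0.30 (-0.36 to -0.25). The counting interval of Acan lay within 0.5 of 0 on either side, and the median over the 4 was -0.21. Hapln1 averaged 9.89 CPM after scaling, just short of the minimum, and its ratio was 0.62 (0.064 to 1.20) with lanes that did not overlap. With UMIs expected from other nuclei taken out, Hapln1 was at 0.63 and Ncan at -0.53, both past the rule, and Acan was at 0.074, Bcan at -0.13 and Tnr at -0.29. Among all genes, 7.67% were then higher and 7.34% lower. The PV list itself differed little, at 2574 and 2582 CPM in saline and 2591 and 2542 CPM in risperidone. The glutamatergic list in these nuclei was lower in risperidone, at 178 and 165 CPM in saline and 106 and 93.0 CPM in risperidone, as was the oligodendrocyte list at 179.7 and 136 CPM in saline and 118 and 101 CPM in risperidone. The striatal list was lower too, at 1987 and 1979 CPM in saline and 1551 and 1455 CPM in risperidone. The astrocyte list, of the class where Ncan was highest, was higher, at 417 and 419 CPM in saline and 474 and 474 CPM in risperidone. The part of these lists in the ratios of Ncan and Tnr was not tested.

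In Lamp5-like nuclei 4 genes were measured, and 1 was lower, against 8.17% higher and 8.02% lower among all genes. Tnr was lower at -1.08 (-1.23 to -0.94). Hapln1 was at 0.47 (0.17 to 0.78), short of the threshold with lanes that did not overlap, Vcan at 0.014 (-0.23 to 0.26) and Ncan at -0.29 (-0.65 to 0.083). The Lamp5 list in these nuclei was at 3503 and 3384 CPM in saline and 3826 and 3451 CPM in risperidone, the glutamatergic list at 178 and 198 CPM in saline and 112 and 118 CPM in risperidone and the oligodendrocyte list at 175 and 148 CPM in saline and 50.0 and 70.8 CPM in risperidone, and UMIs expected from other nuclei were a ratio of 0.674 in saline and 0.641 in risperidone to the Tnr UMIs counted. With them taken out Tnr was at -1.10, Hapln1 at 0.33, Vcan at -0.094 and Ncan at -0.28. The median over the 4 was -0.14.

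In Sst-like nuclei 4 genes were measured and 2 were higher, against 7.03% higher and 9.76% lower among all genes. Ncan was at 23.3 and 22.0 CPM in saline and 34.8 and 37.6 CPM in risperidone, a ratio of 0.56 (0.21 to 0.93), and Vcan at 10.8 and 17.8 CPM in saline and 23.1 and 30.6 CPM in risperidone, a ratio of 0.78 (0.35 to 1.23). The summed markers of the class went the other way, from 1925 and 1889.7 CPM in saline to 1209 and 1219 CPM in risperidone. Not every marker was lower. With lanes added, Grin3a was at 1129 CPM in saline and 790 in risperidone, Elfn1 at 433 and 211. Tmem132c was at 269 and 135 and Crhbp at 33 and 23. Sst itself was at 41 CPM in saline and 52 in risperidone, and Chodl at 2 and 3. The glutamatergic list in these nuclei was at 199 and 222 CPM in saline and 373 and 392 CPM in risperidone. The astrocyte list was at 159.8 and 168 CPM in saline and 284 and 252 CPM in risperidone. The oligodendrocyte list was at 189 and 194 CPM in saline and 303 and 326 CPM in risperidone. The OPC list, of the class where Vcan was highest, was at 526 and 507 CPM in saline and 507 and 546 CPM in risperidone, with lanes that overlapped. With at least 6 own marker UMIs asked of a nucleus in place of 3, Ncan was at 0.78 and Vcan at -0.14, so the direction of Vcan depended on which nuclei were called Sst-like. Tnr at -0.10 (-0.17 to -0.036) and Bcan at 0.17 (-0.26 to 0.60) did not pass. When nuclei were called female or male by Xist and Y-linked UMIs, Ncan and Vcan passed in neither set, where Ncan was at 0.18 (-0.42 to 0.81) in nuclei called female and 0.35 (-0.50 to 1.23) in nuclei called male, and Vcan at 0.45 (-0.35 to 1.32) and -0.68 (-2.31 to 0.86). Much of the UMIs lay in nuclei called neither, since of 207 Vcan UMIs in risperidone 49 were in nuclei called female and 7 in nuclei called male, and of 276 Ncan UMIs 77 and 30. Taking out the UMIs expected from other nuclei left Vcan at 1.28, Ncan at 0.88, Bcan at 0.38 and Tnr at -0.014. The median over the 4 was 0.37.

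In glutamatergic-like nuclei Ncan and Tnr were measured and neither passed, against 4.14% higher and 7.49% lower among all genes. Tnr was at -0.43 (-0.45 to -0.42), with every risperidone lane under every saline lane, and Ncan at -0.15 (-0.19 to -0.10). With UMIs expected from other nuclei taken out they were at -0.43 and -0.15. The glutamatergic list in these nuclei was at 1275 and 1212 CPM in saline and 1185 and 1160.0 CPM in risperidone and the oligodendrocyte list at 204 and 204 CPM in saline and 176 and 155 CPM in risperidone. The striatal list was at 2279 and 2227 CPM in saline and 1650 and 1683 CPM in risperidone. Higher in risperidone was the astrocyte list, at 177 and 178 CPM in saline and 198 and 184 CPM in risperidone. Striatal-like nuclei numbered 1212 in saline and 578 in risperidone. The part of these lists in the ratios was not tested. The make-up of the class differed, since nuclei with layer 2/3 markers were 2674 of 10575 and 3401 of 11996 in saline and 5197 of 13313 and 5364 of 12706 in risperidone, by lane. Tnr was at 1041 CPM in saline and 871 in risperidone in these, at 954 CPM in saline and 694 in risperidone in layer 4/5, at 1227 CPM in saline and 774 in risperidone in layer 5 extratelencephalic, at 750.5 CPM in saline and 681 in risperidone in near-projecting and at 857 CPM in saline and 690.1 in risperidone in layer 6 corticothalamic nuclei, so all 5 types were lower in risperidone. The part of the make-up in the ratio of the class was not tested.

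In oligodendrocyte-like nuclei 3 of 4 measured genes were lower, against 16.8% higher and 24.7% lower. Vcan was at 49.2 and 40.2 CPM in saline and 22.9 and 17.7 CPM in risperidone, and Ncan at 30.1 and 31.6 CPM in saline and 13.4 and 17.7 CPM in risperidone. Their ratios were -1.30 (-1.92 to -0.73) and -1.12 (-1.83 to -0.46), and that of Tnr was -0.99 (-1.08 to -0.91). The oligodendrocyte list in these nuclei was higher in risperidone, at 11124 and 12562 CPM in saline and 18510.3 and 19374 CPM in risperidone. The glutamatergic list was lower there, at 470.4 and 403 CPM in saline and 212 and 187 CPM in risperidone, as was the OPC list at 406 and 454 CPM in saline and 281 and 351 CPM in risperidone, and the estimated RNA of other nuclei was 40.8% and 35.4% in saline and 15.7% and 9.75% in risperidone. With UMIs expected from other nuclei taken out all 4 passed the rule, with Vcan at -1.69, Tnr at -1.27, Ncan at -1.02 and Bcan at -0.73. Among all genes, 11.3% were then higher and 22.3% lower. In nuclei of at least 3000 UMIs, of which the lanes held 69 and 135 for saline and 38 and 54 for risperidone, the ratio of Tnr was 0.0088, and with the same lowest number of UMIs per nucleus in every lane, 1630, it was -0.36. That common minimum was chosen after seeing the data. Depth differed between the conditions, as did the RNA of other nuclei in the glial, Sst-like and Lamp5-like classes, and beyond the values given their part in the ratios was not tested.

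**Figure D4:**
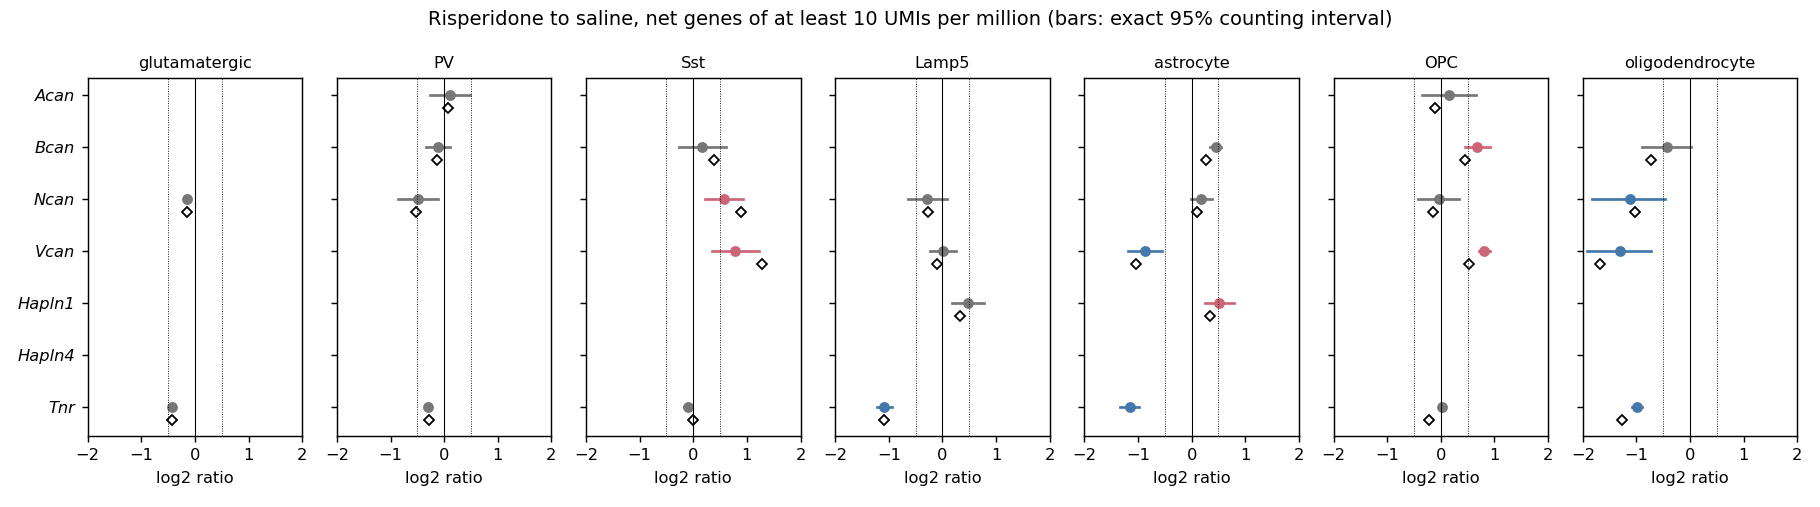
Log2 ratio of risperidone to saline (horizontal axis) for each of the 7 genes with at least 10 CPM in a class, a panel for each of 7 classes. Circles are the ratios with exact 95% counting intervals, red for higher, blue for lower and grey for not past the size rule, diamonds are the ratios with UMIs expected from other nuclei taken out, and dotted lines mark 0.5 in both directions. Vcan and Bcan in OPC nuclei lie at 0.81 and 0.68, while Acan in PV nuclei lies at 0.11.

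Each pool held both sexes, and nuclei were called female by UMIs of Xist without Y-linked UMIs or male by the reverse. By lane, 37.7% and 39.1% of nuclei in saline and 49.8% and 48.8% in risperidone were called female. Called male were 17.9% and 18.3% in saline and 18.7% and 19.5% in risperidone, although the pools held equal numbers of animals. The rest were called neither, which takes in nuclei with no such UMI and nuclei with UMIs of both kinds. A deeper nucleus is more likely to show such a UMI. Vcan in Lamp5-like nuclei went in opposite directions. In nuclei called female it was at 62.6 and 60.6 CPM in saline and 94.7 and 106 CPM in risperidone, a ratio of 0.68 (0.28 to 1.09) on 68 and 236 UMIs. In nuclei called male it was at 104 and 107 CPM in saline and 50.9 and 44.3 CPM in risperidone, a ratio of -1.15 (-1.68 to -0.63) on 77 and 54 UMIs. The ratio over all Lamp5-like nuclei, 0.014 on 232 and 378 UMIs, holds these and the nuclei called neither. Hapln1, found in the same class, was higher in risperidone lanes in nuclei of either call, at 0.65 (0.18 to 1.15) and 0.35 (-0.21 to 0.93).

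Hapln1 in PV-like nuclei had 4 UMIs in saline and 46 in risperidone in nuclei called female, at 2.35 and 1.88 CPM in saline and 14.4 and 12.4 CPM in risperidone. In nuclei called male it had 14 and 27 UMIs, at 11.1 and 9.01 CPM in saline and 13.6 and 12.6 CPM in risperidone. The ratios were 2.58 (1.13 to 4.52) and 0.35 (-0.63 to 1.39), and their intervals overlapped. Acan in the same class was at 0.0019 (-0.57 to 0.60) in nuclei called female and 0.77 (-0.063 to 1.67) in nuclei called male. Vcan in OPC-like nuclei had the same direction in both, at 0.96 (0.81 to 1.12) and 0.51 (0.24 to 0.77), as had Bcan, at 0.56 (0.23 to 0.91) and 0.68 (0.091 to 1.27). In glutamatergic-like nuclei Tnr was at 1066 and 1068 CPM in saline and 747 and 751 CPM in risperidone in nuclei called female and at 917 and 929 CPM in saline and 858 and 865 CPM in risperidone in nuclei called male, with ratios of -0.62 (-0.64 to -0.60) and -0.18 (-0.20 to -0.15). A difference between the sexes was not tested, since each sex of a condition is again a single pool.

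**Figure D5:**
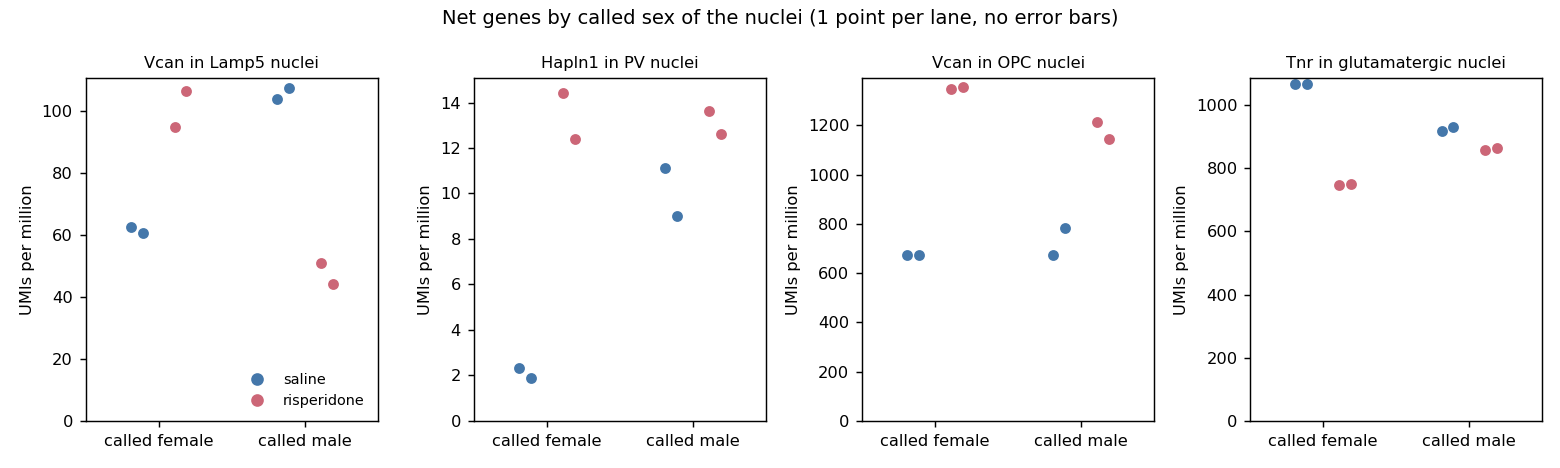
Level in CPM (vertical axis, from 0) of Vcan in Lamp5, Hapln1 in PV, Vcan in OPC and Tnr in glutamatergic nuclei, for nuclei called female and male, with a point per lane, blue for saline and red for risperidone. Vcan in Lamp5 nuclei is higher in risperidone among nuclei called female and lower among nuclei called male, while the other 3 panels have 1 direction in both.

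Other genes of the matrix were taken from 5 lists and read by the same size rule. The median ratio over all genes was between -0.041 and -0.019 in the 5 classes used. The shares of all genes past the rule, given above for each class, were 10.3% higher and 13.4% lower in OPC-like, 8.91% and 15.2% in astrocyte-like, 7.12% and 7.94% in PV-like, 7.03% and 9.76% in Sst-like and 4.14% and 7.49% in glutamatergic-like nuclei, and each count of a list is to be read beside them. The lists are short and were not tested. Counts that differ with plain CPM in place of TMM, a scaling tried on these lists after the data were seen, are given in parentheses, beside shares of all genes that also differ. Of 12 further core proteins, OPC-like nuclei had 3 of 8 measured genes higher and 4 lower (median ratio -0.29) in risperidone, and astrocyte-like nuclei 2 of 7 measured genes higher and 4 lower (median ratio -0.59, and 2 higher and 3 lower with plain CPM). Cspg4, Reln and Dcn of this list are also class markers. Tnc, which encodes tenascin-C, a relative of tenascin-R, was higher in OPC-like nuclei at 1.09 (0.44 to 1.78), and in astrocyte-like nuclei, where it was picked out after its values were seen, at 0.63 (0.39 to 0.88). In OPC-like nuclei the largest differences were those of Spock3 at -1.39 (-1.81 to -0.98) and of Reln, which encodes reelin, at -1.20 (-1.75 to -0.68), both of which neurons also express, and in astrocyte-like nuclei those of Spock1, a testican, at -1.47 (-1.70 to -1.24), Spock3 at -1.36 (-1.62 to -1.11) and Reln at -1.30 (-1.70 to -0.91). Expected UMIs from other nuclei, as a ratio to those counted, were 0.623 in saline and 0.562 in risperidone for Reln and 0.617 in saline and 0.832 in risperidone for Spock3 in OPC-like nuclei. In astrocyte-like nuclei the ratio was 1.56 in saline and 1.77 in risperidone for Spock1, whose UMIs were thus not above those expected, 0.556 in saline and 0.875 in risperidone for Spock3 and 0.749 in saline and 0.857 in risperidone for Reln. Spock2 was lower at -0.63 (-0.66 to -0.59) in glutamatergic-like, -0.52 (-0.67 to -0.38) in PV-like and -0.78 (-0.94 to -0.63) in Sst-like nuclei, and with plain CPM it was not past the rule in PV-like nuclei. Glutamatergic-like nuclei had 0 of 6 measured genes higher and 3 lower (median ratio -0.48, and 0 higher and 1 lower with plain CPM), PV-like nuclei 0 of 6 measured genes higher and 1 lower (median ratio -0.16, and 0 higher and 0 lower with plain CPM) and Sst-like nuclei 0 of 6 measured genes higher and 2 lower (median ratio -0.15, and 0 higher and 1 lower with plain CPM).

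Of 9 genes that make, break or bind hyaluronan, few were measured. Cemip, which encodes a hyaluronan-degrading protein, had its highest mean level in PV-like nuclei at 694 CPM, and did not pass there. It was lower in glutamatergic-like nuclei at -0.65 (-0.69 to -0.60), in astrocyte-like nuclei at -1.66 (-2.16 to -1.17) and in OPC-like nuclei at -1.47 (-2.56 to -0.49), the last on 35 and 12 UMIs. The UMIs expected from other nuclei were a ratio of 1.18 in saline and 1.10 in risperidone to those counted in OPC-like nuclei, so none were in excess there, and of 0.601 in saline and 0.757 in risperidone in astrocyte-like nuclei. The counts were 0 of 2 measured genes higher and 1 lower (median ratio -0.38) in glutamatergic-like, 0 of 2 measured genes higher and 0 lower (median ratio -0.35) in PV-like, 0 of 2 measured genes higher and 0 lower (median ratio 0.0042) in Sst-like, 0 of 3 measured genes higher and 2 lower (median ratio -0.76) in astrocyte-like and 0 of 3 measured genes higher and 1 lower (median ratio 0.12, and 1 higher and 1 lower with plain CPM) in OPC-like nuclei. Of 21 genes for building and sulfating chondroitin sulfate, PV-like nuclei had 0 of 11 measured genes higher and 4 lower (median ratio -0.25, and 0 higher and 1 lower with plain CPM), with Csgalnact1 at -0.79 (-1.0 to -0.58), Chsy3 at -0.59 (-0.65 to -0.52) and Chst11 at -0.52 (-0.73 to -0.32) as the 3 largest, of which Csgalnact1 alone was past the rule with plain CPM. Glutamatergic-like nuclei had 0 of 10 measured genes higher and 3 lower (median ratio -0.19, and 0 higher and 2 lower with plain CPM), led by the sulfotransferase genes Chst11 at -0.71 (-0.74 to -0.68) and Ust at -0.69 (-0.73 to -0.65). Sst-like nuclei had 0 of 12 measured genes higher and 0 lower (median ratio -0.05, and 1 higher and 0 lower with plain CPM), astrocyte-like nuclei 0 of 9 measured genes higher and 2 lower (median ratio -0.077) and OPC-like nuclei 1 of 16 measured genes higher and 2 lower (median ratio 0.019, and 2 higher and 2 lower with plain CPM), with Chst7 at 0.95 (0.11 to 1.84) the higher gene. The lower genes in astrocyte-like nuclei were Chsy3 and Ust. Their expected UMIs from other nuclei were a ratio of 0.760 in saline and 0.994 in risperidone for Chsy3 and 0.626 and 0.476 for Ust.

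Of 19 proteases and inhibitors, Timp3, which encodes an inhibitor of metalloproteases and of aggrecan-cleaving enzymes, was higher in glutamatergic-like nuclei at 1.65 (1.56 to 1.75), on 1048 UMIs in saline and 6229 in risperidone, and in PV-like nuclei at 0.73 (0.20 to 1.29). Its expected UMIs from other nuclei were a ratio of 0.499 in saline and 0.215 in risperidone to those counted in glutamatergic-like nuclei. In PV-like nuclei the ratio was 0.343 in saline and 0.268 in risperidone. The highest class mean of Timp3 was in endothelial-like nuclei, at 523 CPM. Glutamatergic-like nuclei had 1 of 6 measured genes higher and 0 lower (median ratio -0.0094), PV-like nuclei 1 of 6 measured genes higher and 0 lower (median ratio -0.10) and Sst-like nuclei 1 of 5 measured genes higher and 2 lower (median ratio -0.13, and 1 of 6 higher and 0 lower with plain CPM). OPC-like nuclei had 4 of 11 measured genes higher and 1 lower (median ratio 0.07, and 4 higher and 0 lower with plain CPM), beside 10.3% higher among all genes, with the inhibitor gene Timp4 at 1.25 (0.44 to 2.11) and the membrane protease genes Mmp14 at 1.16 (0.24 to 2.15) and Mmp15 at 0.99 (0.55 to 1.44). Astrocyte-like nuclei had 2 of 6 measured genes higher and 1 lower (median ratio 0.0032), with Timp4 at 0.99 (0.64 to 1.34). Among 15 receptors and ligands held by nets, PV-like nuclei had 0 of 11 measured genes higher and 5 lower (median ratio -0.42, and 0 higher and 2 lower with plain CPM), led by Nrp1, a semaphorin receptor gene, at -1.32 (-1.71 to -0.93) and Ptprd, a receptor phosphatase gene, at -0.65 (-0.69 to -0.62). Expected UMIs from other nuclei were a ratio of 0.611 in saline and 0.953 in risperidone to those counted for Nrp1 and 0.503 in saline and 0.662 in risperidone for Ptprd. With plain CPM these 2 genes were the lower ones of the list, beside 4.72% of all genes. Glutamatergic-like nuclei had 1 of 13 measured genes higher and 3 lower (median ratio -0.29, and 1 higher and 1 lower with plain CPM). The Nogo receptor gene Rtn4r was lower there at -0.78 (-0.82 to -0.74) and Sema3a, a ligand that nets bind and the single higher gene, named after its values were seen, was at 0.53 (0.49 to 0.56). The counts were 1 of 12 measured genes higher and 2 lower (median ratio -0.0091, and 2 higher and 1 lower with plain CPM) in Sst-like, 0 of 11 measured genes higher and 4 lower (median ratio -0.21, and 0 higher and 3 lower with plain CPM) in astrocyte-like and 0 of 11 measured genes higher and 3 lower (median ratio -0.24, and 1 higher and 3 lower with plain CPM) in OPC-like nuclei. Of the lower genes in astrocyte-like nuclei, expected UMIs were a ratio of 1.36 in saline and 1.18 in risperidone for Rtn4rl1. In the same order the ratio was 0.679 and 0.996 for Ptprd, 0.964 and 0.840 for Plxna4 and 0.443 and 0.257 for Ptprs. In OPC-like nuclei it was 2.33 and 1.71 for Rtn4rl1, 0.828 and 0.776 for Nrp1 and 0.768 and 0.857 for Ptprd. The Rtn4rl1 UMIs of both classes were thus not above those expected.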

How the data were processed

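Nuclei of pooled cortices were sorted by DAPI and sequenced with the Chromium GEM-X Universal v4 kit. The authors deposited, per lane, a filtered matrix of UMI counts made with Cell Ranger 8.0.1 on mm10, introns included, so the unit is raw counts with no normalization. Kept were nuclei of 500 or more genes with mitochondrial UMIs of 5% or less (108493 of 108955). Each was put in a class by the likelihood of its marker UMIs, with at least 3 own marker UMIs and a posterior of at least 0.95, over 2 rounds. Nuclei that mixed the markers of 2 classes, 22.6% to 29.8% of a lane, were left without a class as possible doublets, and no separate doublet caller was run. They remain in all values given over all nuclei. These thresholds were set after marker levels were seen. The 7 genes and all lists were chosen with earlier results of these data known.

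Counts were summed per class and lane with Python 3.11.15, numpy 2.4.6 and scipy 1.17.1, and scaled with TMM factors of edgeR 4.0.16 in R 4.3.3, or with size factors of DESeq2 1.42.0 as an alternative. Lanes held 119736937 to 203675013 UMIs. Intervals are exact at 95% and cover counting error only. Pathway genes named are the up to 3 past the size rule with the largest ratio per list and class, and likeness genes the 3 with the highest r. The size rule and the counting intervals were tested on simulated counts of the OPC-like, PV-like and glutamatergic-like classes, with counting error alone between lanes. Classing, scaling factors, thinning, sex calls and the removal of UMIs from other nuclei were not tested in this way. Alternatives changed the scaling, lanes, depth, marker minimum, filter, threshold, called sex and UMIs from other nuclei.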

Additional observations from a re-analysis of the deposited data

Results flagged for a closer look

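Ratios of opposite sign drew attention in the following cases. Between classes, each ratio had to be past the size rule, so smaller ratios of opposite sign are not listed. Between nuclei of different called sex, every lane had to be on its side after scaling, with a mean of at least 10 CPM. None of the differences was tested, since each condition is 1 pool. Across classes, the log2 ratio of Ncan was 0.56 in Sst-like and -1.12 in oligodendrocyte-like nuclei. That of Vcan was 0.81 in OPC-like and 0.78 in Sst-like nuclei, but -0.87 in astrocyte-like and -1.30 in oligodendrocyte-like nuclei. Between nuclei called female and male, Vcan in Lamp5-like nuclei was at 0.68 and -1.15. Ncan in OPC-like nuclei was at 0.35 (-0.22 to 0.94) on 41 and 72 UMIs in nuclei called female, and at -0.55 (-1.74 to 0.54) on 23 and 11 UMIs in nuclei called male. Before scaling, the lanes of the latter overlapped, at 67.2 and 72.8 CPM in saline and 32.8 and 71.6 CPM in risperidone, on 3 and 8 UMIs in the risperidone lanes. Tnr in Sst-like nuclei was at -0.44 (-0.55 to -0.32) in nuclei called female and at 0.068 (-0.09 to 0.23) in nuclei called male. Below that minimum, Acan over all nuclei was at -0.63 (-0.89 to -0.38) in nuclei called female and at 0.32 (-0.094 to 0.75) in those called male.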

How the results depend on the processing

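No paired analysis was possible because the lanes are technical runs of 1 pool per condition and no test was made. Of 386 values of 33 ratios under other settings, 308 stayed within the counting interval, 74 lay outside it, 12 of them on the other side of 0 from a ratio not past the size rule, and 4 turned the direction of a ratio past it. The last were Vcan in Sst-like nuclei, at -0.14 with the higher marker minimum and -0.68 in nuclei called male, Hapln1 in astrocyte-like nuclei called male, at -0.23, and Tnr in oligodendrocyte-like nuclei of at least 3000 UMIs, at 0.0088. The cause was not tested. Among ratios not past the rule that changed sign outside the interval were Vcan in Lamp5-like nuclei called male, at -1.15, Acan in OPC-like nuclei of at least 3000 UMIs, at -0.38, and Tnr in Sst-like nuclei with plain CPM, at 0.02.

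The number of the 7 genes past the size rule was 0 over all nuclei, against 1 (Tnr) in nuclei called female and 2 (Bcan, Vcan) in nuclei called male. The share of all genes past the rule moved with the setting too, and is given as percent higher and then percent lower. Over all nuclei it was 4.11% and 9.75% called female and 3.21% and 7.12% called male. In glutamatergic-like nuclei the number of the 7 genes was 0, against 1 (Tnr) in nuclei called female and 1 (Acan) without the filter on low counts. The share of all genes was 5.57% and 9.81% called female and 17.0% and 12.3% without the filter. In PV-like nuclei it was 0, against 1 (Ncan) called female, 2 (Acan, Hapln4) called male, 2 (Hapln1, Ncan) with UMIs of other nuclei taken out, and 1 (Hapln1) both at 1 CPM and without the filter. It ran from 0 to 2 when a lane was left out, with 1 without saline lane 1 and 2 without saline lane 2. In Sst-like nuclei the number was 2, against 1 with the higher marker minimum, 0 called female, 0 called male and 0 at an absolute log2 ratio of 1, and 1 to 2 when a lane was left out, with 1 without saline lane 1 or risperidone lane 2. Among all genes the share was 7.70% and 8.02% with the higher marker minimum. Called female it was 11.6% and 8.81%, called male 10.8% and 11.6%, and at a log2 ratio of 1 1.15% and 0.883%. Without saline lane 1 it was 8.99% and 11.2%, and without risperidone lane 2 7.54% and 11.1%. In Lamp5-like nuclei the number was 1, against 2 with plain CPM, 3 called female, 2 called male, 2 at 1 CPM and 2 without the filter, and 1 to 2 when a lane was left out, with 2 without risperidone lane 2. The share of all genes was 10.7% and 6.26% with plain CPM, 13.7% and 9.52% called female and 13.0% and 9.56% called male. At 1 CPM it was 15.4% and 11.5%, without the filter 13.9% and 11.6%, and without risperidone lane 2 9.94% and 9.92%. In astrocyte-like nuclei the number was 3, against 0 in nuclei of at least 3000 UMIs, 1 (Vcan) with UMIs of other nuclei taken out and 1 (Tnr) at a log2 ratio of 1, and without Hapln1 it was 2 in nuclei called male, with saline lane 1 left out and with risperidone lane 1 left out. Bcan passed as well, higher, with plain CPM. For all genes the share was 9.13% and 16.0% at 3000 UMIs and 8.35% and 10.6% with UMIs of other nuclei taken out. At a log2 ratio of 1 it was 1.97% and 7.06%, called male 11.9% and 18.4%, and with plain CPM 13.0% and 12.6%. Without saline lane 1 it was 10.9% and 15.5%, and without risperidone lane 1 8.90% and 17.3%. In OPC-like nuclei the number was 2, against 1 (Vcan) in nuclei of at least 3000 UMIs, 1 (Vcan) with UMIs of other nuclei taken out and 0 at a log2 ratio of 1, and it was 3 in nuclei called male (Bcan, Vcan and, lower, Ncan) and without risperidone lane 2 (Bcan, Vcan, Hapln1). Among all genes the share was 10.7% and 15.4% at 3000 UMIs and 10.8% and 10.3% with UMIs of other nuclei taken out. At a log2 ratio of 1 it was 2.68% and 4.40%, called male 12.3% and 20.6%, and without risperidone lane 2 12.8% and 17.8%. In oligodendrocyte-like nuclei it was 3, against 2 (Ncan, Vcan) at a log2 ratio of 1, at 3000 UMIs and at the common UMI minimum, which was chosen after seeing the data, and 0 in nuclei called male, where Ncan had 14 UMIs in saline and 0 in risperidone and so no ratio that could be counted.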
